A study of Mus musculus with 56 samples.

Results

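The 156 H2A.Z peaks described here are those that the authors' lists of changed peaks give to a mouse gene whose symbol is Zfp followed by a number. The gene Zfp42 was left out by rule, so no count of Zfp genes below covers it. They comprised 150 peaks on the lower list, at 103 genes, and 6 on the higher list, at 5 genes, for 106 genes in all. The lists hold 9395 changed peaks out of a set of 61420, of which 14.8% were on the lower list and 0.518% on the higher list. Being on a list is what chose these peaks, so those counts are a description. What follows concerns where they lay, how wide they were, and what happened at Zfp genes that were not chosen.

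The cells were RHKI(E14Tg2a) mouse embryonic stem cells, which all carried the HA-Rnaseh1 knock-in, in controls as well as in treated cells. RNase H1 is the enzyme that cuts RNA paired with DNA. Medium with LIF and 2% FBS held the GSK3 inhibitor CHIR-99021 at 3 µM and the MEK inhibitor PD0325901 at 1 µM. They were either left as controls (4 H2A.Z libraries) or given 500 ng/ml doxycycline for 48 h to induce the knock-in (4 H2A.Z libraries). CUT&Tag, which places a transposase at an antibody-bound chromatin protein and sequences the DNA it cuts, was run on 10 targets in 56 libraries. The other 48 libraries are not used here. A further line named in the design text, ZX-1, is on no sample label, so an effect of doxycycline itself cannot be told apart from that of Rnaseh1. Nothing in the sources used here says that the 4 libraries of a group came from separate cultures. The lists name no contrast, and lower and higher are read from their names as lower and higher with doxycycline. Neither the size of a change, its spread over libraries nor the depth behind it is known, since the lists hold positions and annotation alone. The libraries are bulk, so less H2A.Z in every cell and fewer cells with H2A.Z at a site cannot be told apart. The cell type was not checked, since peak lists give no expression level.

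Zinc finger proteins of the C2H2 type bind DNA through arrays of fingers, each folded around a zinc ion. Many carry a KRAB domain, which recruits TRIM28 and with it SETDB1, HP1 and H3K9 methylation, and many KRAB genes lie in tandem clusters that grew by duplication and silence retroelements in embryonic stem cells. Others, such as Zfp423 and Zfp521, stand alone, have no KRAB domain and act in lineage choice. The Zfp name also covers a few CCCH finger proteins that bind RNA. H2A.Z is a histone H2A variant placed at promoters and enhancers by the SRCAP and p400 complexes, and in embryonic stem cells it also marks the promoters of silent developmental genes.

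Promoters of the kinds met below are shown as the 250 bases before the transcription start, 5′ to 3′ on the gene's strand, from the RefSeq promoter table of GRCm38.p6, with each CG dinucleotide in capitals. Zfp423 (chr8:87959596-87959845, minus strand), Zfp536 (chr7:37769753-37770002, minus strand) and Zfp768 (chr7:127345315-127345564, minus strand) are shown because they had the 3 widest lower promoter peaks. Zfp790 (chr7:29815822-29816071, plus strand), Zfp82 (chr7:30072824-30073073, minus strand) and Zfp420 (chr7:29859762-29860011, plus strand) lie in a cluster on chromosome 7 and were under lower peaks. Zfp712 (chr13:67061171-67061420, minus strand) and Zfp457 (chr13:67306413-67306662, minus strand) lie in the largest cluster, on chromosome 13, and were under the widest of the peaks on neither list that touch one of its promoter windows.
Zfp423: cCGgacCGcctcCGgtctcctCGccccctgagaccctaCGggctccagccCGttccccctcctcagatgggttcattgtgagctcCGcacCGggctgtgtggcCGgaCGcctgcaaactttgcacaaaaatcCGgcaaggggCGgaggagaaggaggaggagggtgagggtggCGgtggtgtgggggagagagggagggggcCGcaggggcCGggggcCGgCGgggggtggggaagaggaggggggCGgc
Zfp536: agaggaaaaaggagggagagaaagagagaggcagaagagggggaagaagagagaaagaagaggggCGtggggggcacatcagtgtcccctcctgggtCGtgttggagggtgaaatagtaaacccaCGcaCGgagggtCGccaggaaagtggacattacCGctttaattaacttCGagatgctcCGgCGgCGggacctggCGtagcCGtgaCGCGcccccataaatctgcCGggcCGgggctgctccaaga
Zfp768: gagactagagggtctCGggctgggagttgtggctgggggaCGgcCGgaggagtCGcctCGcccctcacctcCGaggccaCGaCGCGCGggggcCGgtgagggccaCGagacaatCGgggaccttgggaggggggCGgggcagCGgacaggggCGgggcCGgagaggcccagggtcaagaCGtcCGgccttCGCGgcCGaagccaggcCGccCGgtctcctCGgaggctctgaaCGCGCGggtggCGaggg
Zfp790: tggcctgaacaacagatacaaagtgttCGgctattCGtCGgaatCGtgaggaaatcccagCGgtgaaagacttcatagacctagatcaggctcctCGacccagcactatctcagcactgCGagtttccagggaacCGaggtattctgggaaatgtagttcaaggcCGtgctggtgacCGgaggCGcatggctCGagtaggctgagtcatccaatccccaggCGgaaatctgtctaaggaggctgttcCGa
Zfp82: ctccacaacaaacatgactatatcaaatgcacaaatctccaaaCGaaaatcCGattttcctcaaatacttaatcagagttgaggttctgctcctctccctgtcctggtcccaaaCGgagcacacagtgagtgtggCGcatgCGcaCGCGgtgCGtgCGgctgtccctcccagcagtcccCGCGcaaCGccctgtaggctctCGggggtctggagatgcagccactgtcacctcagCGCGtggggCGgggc
Zfp420: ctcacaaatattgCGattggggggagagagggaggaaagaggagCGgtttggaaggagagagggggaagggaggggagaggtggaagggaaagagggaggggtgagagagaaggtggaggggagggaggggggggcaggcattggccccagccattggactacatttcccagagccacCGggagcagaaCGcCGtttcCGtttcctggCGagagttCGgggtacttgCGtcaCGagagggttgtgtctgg
Zfp712: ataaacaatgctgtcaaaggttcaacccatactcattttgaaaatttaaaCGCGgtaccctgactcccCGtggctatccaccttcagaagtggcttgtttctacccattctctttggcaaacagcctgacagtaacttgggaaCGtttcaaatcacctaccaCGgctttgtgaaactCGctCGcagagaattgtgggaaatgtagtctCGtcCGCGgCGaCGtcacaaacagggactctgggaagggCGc
Zfp457: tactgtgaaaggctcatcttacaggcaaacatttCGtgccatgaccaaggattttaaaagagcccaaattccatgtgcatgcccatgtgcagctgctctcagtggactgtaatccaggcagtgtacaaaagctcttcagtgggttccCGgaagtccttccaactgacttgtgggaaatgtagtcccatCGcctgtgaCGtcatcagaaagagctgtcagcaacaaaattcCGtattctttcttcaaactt

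The 250 bases of Zfp423 held 18 CG dinucleotides at 71.6% GC, those of Zfp768 held 29 at 75.2%, and those of Zfp536 held 16 at 58.8%. Those of the chromosome 7 cluster held 14 at 53.6% GC for Zfp790, 16 at 57.6% for Zfp82 and 10 at 60.8% for Zfp420. Zfp712 had 13 at 48.8% GC and Zfp457 had 5 at 46%, under peaks of 2983 and 1862 bp. Peaks on neither list are called unchanged here, which says only that neither list holds them.

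The lower Zfp peaks were spread over promoters, exons, introns and distal sites in shares close to those of the lower list as a whole. By the authors' annotation 28 of 150 (18.7%) lay in a promoter, against 18.9% of all 9077 lower peaks. Another 8 (5.33%) lay in a 5′ UTR, 28 (18.7%) in a coding exon and 1 in a non-coding exon. Introns held 40 (26.7%) and intergenic sequence 45 (30%). No lower Zfp peak lay at a transcript end or in a 3′ UTR, and a count of 0 of 150 allows a share of up to 2% (3 counts of the total). The shares of the whole lower list there, 1.49% and 1.01%, are within that limit. By distance to the transcription start site (TSS), 56 (37.3%) were centred within 1 kb, 33 (22%) at 1 to 10 kb, 48 (32%) at 10 to 100 kb and 13 (8.67%) beyond 100 kb. The same 4 shares of the whole lower list were 38.3%, 19.7%, 32.4% and 9.56%.

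**Figure D1:**
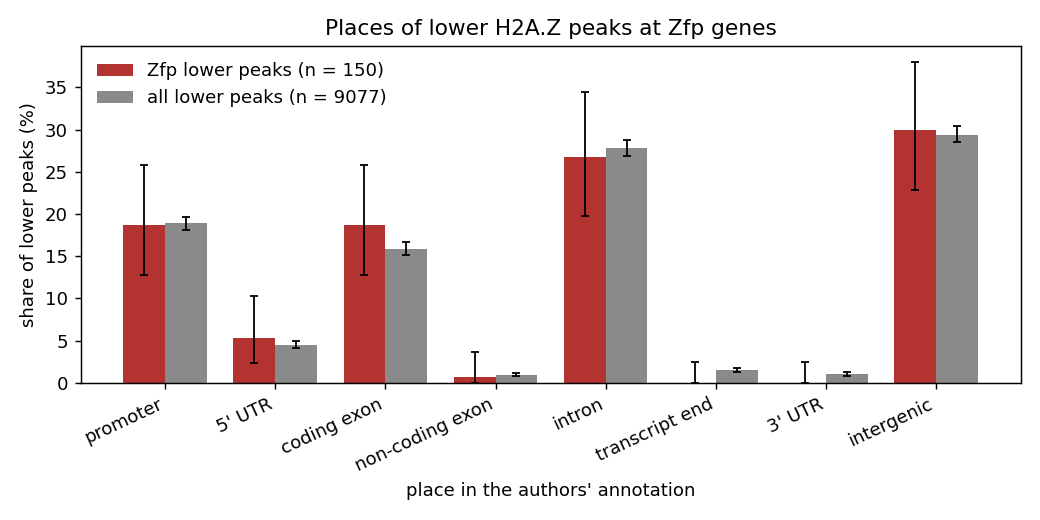
Share of lower peaks (percent, vertical axis) in each class of the authors' annotation (horizontal axis), for the 150 lower Zfp peaks and all 9077 lower peaks, with exact 95% intervals. The promoter bars stand at 18.7% and 18.9%, and the intervals of the Zfp peaks include the share of the whole list in the other large classes too.

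The coding-exon peaks of Zfp genes were mostly in the last exon, the exon that in C2H2 genes usually encodes the finger array. Of the 28, 20 (71.4%, exact 95% Clopper-Pearson interval 51.3% to 86.8%) were in the last exon of their transcript. Of the 1280 coding-exon peaks of the remaining lower list in transcripts with several exons, 325 (25.4%, 23.0% to 27.9%) were. Intervals given here and below are of this kind and cover counting error only. Among the 24 that lay in an exon of the very Zfp gene they were given to, 18 (75%) were in the last one. Examples are the 1065 bp peak over exon 4 of 4 of Zfp251, the 1293 bp peak over exon 4 of 4 of Zfp324, the 1596 bp peak over exon 5 of 5 of Zfp467 and the 1671 bp peak over exon 2 of 2 of Zfp775. The last-exon share also depends on how many exons a transcript has, and the comparison was not matched for it. Whether the Zfp share differs from that of other genes with as few exons was not tested. Unchanged peaks carry no exon annotation in the files, so whether last exons also hold most unchanged exon peaks of Zfp genes was not tested. At 8 genes a lower peak given to the gene at its TSS was joined by another over the last exon. They were Zfp251, Zfp324, Zfp467, Zfp536, Zfp64, Zfp672, Zfp707 and Zfp853. Peaks given to other genes are not in this count. With those, Zfp775 also had a lower peak within 1 kb of a TSS. Zfp746, with a lower TSS peak of its own, had a lower one over its last exon that was given to Zfp777. By the centre and name of each peak, 55 genes had a lower peak within 1 kb of the TSS and 18 had one in the last exon farther away. Some of these 18 were wide enough to cover the TSS too, as at Zfp503 and Zfp579.

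The name given to a peak is that of the nearest TSS, which is not always the gene it lies in. Of 105 lower peaks that the annotation placed in a transcript, 89 were placed in the named Zfp gene and 16 in another. All 3 peaks given to Zfp354c lay in introns of Adamts2, a procollagen protease gene, and both given to Zfp414 in introns of Myo1f, a myosin gene. In some the other gene was itself a Zfp gene. The peak named Zfp212 lay over the last exon of Zfp282 and 1 named Zfp777 over the last exon of Zfp746. The promoter peak named Zfp944 was placed in the promoter of Zfp758 and covers the RefSeq starts of both genes.

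Lower Zfp peaks had a median width of 1013.5 bp (quartiles 707 and 1388.25, range 501 to 7600), against 1034 bp over the whole lower list. Within 1 kb of the TSS their median was 1026 bp and that of all lower peaks 1315.5 bp. Peaks of 3 kb or more were 9 of 150 (6%), against 7.46% of the whole list, and 24 (16%) had the minimum width of 501 bp. Of the 9 broad peaks, 6 belonged to 5 of the developmental genes. The developmental list was compiled from known functions, but with earlier results of these data known, so its values are a description. Its 24 lower peaks at 10 genes had a median width of 1255.5 bp. The 61 lower peaks at 47 genes in clusters (runs of 3 or more Zfp genes with gaps of up to 250 kb) had a median of 887 bp, and 2 of them reached 3 kb. Zfp467 lies in a cluster too but is counted here with the developmental list alone, whereas the gene shares given below count it in its cluster. The 65 at 46 other Zfp genes had a median of 1022 bp, and 1 reached 3 kb. These are medians over peaks that share genes, and no test of the differences was made.

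**Figure D2:**
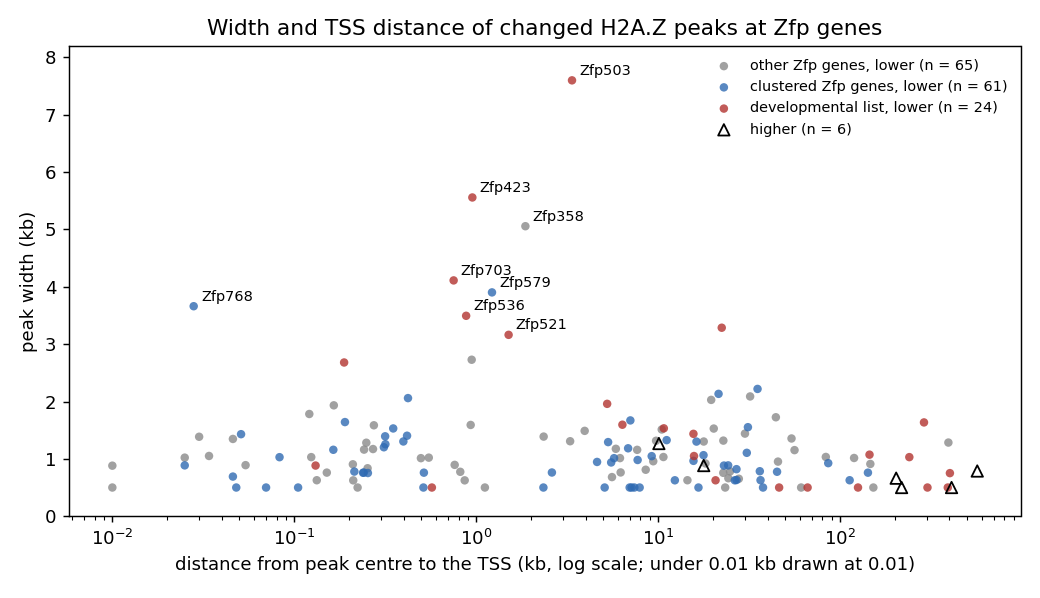
Width of each changed Zfp peak (kb, vertical axis) against the distance of its centre from the TSS (kb, log scale), by class of gene, with higher peaks as open triangles. Most points lie near 1 kb in width at any distance, and the peaks above 3 kb are at Zfp503, Zfp423, Zfp358, Zfp703, Zfp579, Zfp768, Zfp536 and Zfp521.

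The 10 widest lower peaks in the promoter class were at Zfp423 (5558 bp), Zfp768 (3662 bp), Zfp536 (3495 bp), Zfp668 (2060 bp), Zfp664 (1934 bp), Zfp821 (1783 bp), Zfp64 (1586 bp), Zfp783 (1431 bp), Zfp944 (1394 bp) and Zfp651 (1386 bp). Zfp668, whose human counterpart acts in DNA repair, and Zfp768 belong to the same cluster on chromosome 7. The first 3 stand apart, and the following 7 peaks span 1386 to 2060 bp.

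Zfp423, a partner of EBF factors needed for cerebellar development and for commitment of fat cell precursors, had the widest promoter peak. It covered chr8:87957770-87963327, with its centre 953 bp upstream of the TSS. The other peaks given to Zfp423 were 884 bp at an internal promoter (131 bp upstream of that start), 1437 bp over an intronic CpG island, 501 bp in an intron and 3287 bp over exon 4 of 8 (chr8:87780405-87783691). Another pair of lower peaks, of 3896 bp (chr8:87659823-87663718) and 629 bp, lay in the gene near its 3′ end but were given to a nearby gene model. With these, 7 of the 20 H2A.Z peaks in Zfp423 or within 1 kb of it were lower and 13 were unchanged. Over all protein-coding genes, 22.6% of the peaks counted this way were lower.

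Zfp536, a repressor of neuronal differentiation genes, had 7 lower peaks given to it and 7 of 27 in the gene or within 1 kb. Its promoter peak of 3495 bp (chr7:37768886-37772380) was followed within the gene by peaks of 627, 1074 and 1031 bp in introns and 1636 bp over the last exon, 289699 bp from the TSS. The other pair lay 391505 and 402173 bp from that start and measured 501 and 752 bp. The authors' annotation calls them intergenic, while the RefSeq gene reaches over both. At both Zfp423 and Zfp536, unchanged peaks lay between lower ones.

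Zfp503, a corepressor of the NET family that acts in striatal development, had a single peak, and it was lower. It was the widest of all changed Zfp peaks at 7600 bp (chr14:21982437-21990036) and covered the whole gene of 5643 bp. A lower peak of 1960 bp lay 5250 bp upstream of its start. The related gene Zfp703 likewise had 1 peak in the gene, lower and 4112 bp wide (chr8:26976033-26980144), and a lower peak of 1050 bp 15764 bp upstream. At Zfp521, a regulator of neural and blood progenitors, 1 of 12 peaks in the gene was lower, the 3163 bp peak centred 1508 bp inside the start.

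**Figure D3:**
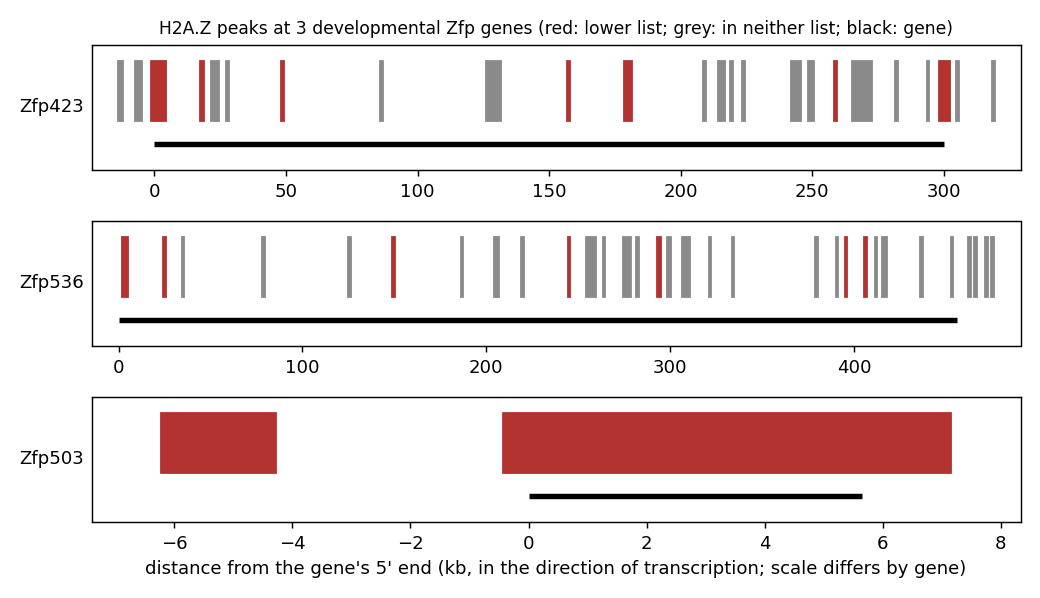
H2A.Z peaks along Zfp423, Zfp536 and Zfp503 (horizontal axis, kb from the gene's 5′ end in the direction of transcription), in red where on the lower list and grey where on neither list, with the gene as a black bar. Within 1 kb of the gene 7 of 20 peaks of Zfp423, 7 of 27 of Zfp536 and 1 of 1 of Zfp503 were lower; very narrow peaks are drawn slightly wider than they are.

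Of the 19 developmental genes listed, 18 were in the RefSeq table, 16 had a peak in the gene or within 1 kb, and 9 of these had a lower one there (56.2%, 29.9% to 80.2%). The share of all protein-coding genes with such a peak that had a lower one was 37.6%, and that of Zfp genes was 27.2% (92 of 338). Since the list was chosen with earlier results known, its share describes these genes alone. Counted by peak, 23 of 87 (26.4%) in developmental genes were lower, against 22.6% over all protein-coding genes and 20.4% (50 of 245) of clustered Zfp genes. Developmental genes had 5.44 peaks per gene with a peak and clustered genes 1.35. Zfp467, which acts in the choice between bone and fat cells, had 2 of 2 peaks lower. Zfp335, a subunit of H3K4 methyltransferase complexes, had 1 of 1 lower, and Zfp385a had 1 of 2. Zfp516, which promotes brown fat, had 2 of 6 lower, both given to a neighbouring gene model. No lower peak lay in Zfp462 (2 peaks), Zfp608 (6), Zfp609 (1), Zfp704 (3), Zfp804a (1), Zfp24 (1) or Zfp365 (1), and Zfp488 and Zfp219 had no peak. Zfp365 was given a lower peak of 501 bp 66394 bp from its start.

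Since Zfp423 and Zfp521 act through EBF factors, the 4 Ebf genes were read the same way. Ebf3 had 3 of 10 peaks lower and Ebf4 had 2 of 5, while none of the 24 peaks of Ebf1 or the 5 of Ebf2 was lower. Over the 4 genes this made 5 of 44 peaks (11.4%), against 22.6% over all protein-coding genes.

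Outside the developmental list, Zfp64, whose human counterpart drives expression of the MLL gene, was given 5 lower peaks. They were its 1586 bp promoter peak, a 921 bp peak over the last exon and peaks of 501, 953 and 1153 bp 23391 to 56262 bp from the start. Zfp746, the Parkin substrate PARIS that represses PGC-1alpha, was given 4: 501 bp at a CpG island by the TSS, and 627, 926 and 760 bp from 12371 to 142495 bp upstream, of which the last 2 overlap LINE elements of the L1Md_T family. Zfp287, Zfp354c, Zfp385c and Zfp92 were given 3 each. Those of Zfp92, an X-linked KRAB gene, were 761 bp at its promoter, 1033 bp over exon 5 of 6 and 1316 bp upstream. Those of Zfp385c were 1172 bp at the TSS, 1513 bp over an intronic CpG island and 1319 bp upstream. Those of Zfp287 were 501, 763 and 2134 bp, and the 763 bp peak, 2609 bp from the start that the authors' annotation used, lay over the start in the RefSeq promoter table. Of the 103 genes with a lower peak 8 (7.77%) had 3 or more, against 7.09% of the 6690 genes on the lower list, and 73 had 1. All 17 pairs of neighbouring lower Zfp peaks less than 10 kb apart belonged to 1 gene each.

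Among Zfp genes linked to pluripotency or general transcription, a lower peak was found at 1 of the 4 that had any (25%, 0.631% to 80.6%), against 37.6% of all protein-coding genes. This was Zfp148, which binds GC-rich promoters, with a 501 bp peak at its promoter. Zfp706, which acts in exit from self-renewal, was given distal lower peaks of 1356 and 1034 bp (54164 and 83616 bp upstream), and Zfp322a a 683 bp peak 5581 bp upstream. Zfp217 (5 peaks) and Zfp207 (1 peak) had unchanged peaks alone, and Zfp281, Zfp296 and Zfp143 had none. Zfp42, left out by rule, is not among these genes. Of the genes that silence imprints or retroelements, 1 of the 5 that had any peak carried a lower one (20%, 0.505% to 71.6%, against 37.6%). It was a 501 bp promoter peak at Zfp809, whose protein silences murine leukaemia virus through the primer binding site. The peaks of Zfp445, an imprint regulator, and of Zfp568, Zfp932 and Zfp708 were unchanged, and Zfp57 and Zfp819 had none.

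A list of KRAB corepressor genes and their partners held 12 genes. Of these 4 had a peak in the gene or within 1 kb, as did 14732 of all 21900 protein-coding genes. A lower peak was found at 1 of the 4 (25%, 0.631% to 80.6%, against 37.6%), and 1 of the list's 6 peaks was lower. That gene was Dnmt1, counted here as a partner rather than a corepressor. Trim28, Setdb1 and the HP1 genes Cbx1, Cbx3 and Cbx5 had no peak. The products of the 4 CCCH genes bind AU-rich elements and bring on mRNA decay. Lower peaks given to them measured 896 bp at the promoter of Zfp36l2, 2729 bp over the first exon of Zfp36l3 and 1389 bp 2350 bp upstream of Zfp36. Zfp36l1 had none. By peaks in the gene or within 1 kb, only Zfp36l2 and Zfp36l3 had any, and 2 of 2 had a lower one (100%, 15.8% to 100%, against 37.6%). The 3 germline and two-cell genes had 3 peaks, none of them lower, against 22.6% of peaks over all protein-coding genes. With a peak at 2 of these genes, the interval of the share of genes reaches 84.2%.

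All 6 higher Zfp peaks were distal, 10107 to 568535 bp from the TSS. Most of the whole higher list was distal too, with 36.2% of its 318 peaks at 10 to 100 kb and 53.1% beyond 100 kb. The 6 Zfp peaks had a median width of 726.5 bp, against 501 bp for all 318. In 3 of the 6 the annotation named an LTR element. Overlap with an element means here that the annotation names it for the peak, and no repeat positions were searched. At Zfp804a, 2 higher peaks of 789 and 664 bp overlapped an RLTR25B element (ERVK) and an MTC element (ERVL-MaLR), 568535 and 203705 bp upstream, with a lower peak of 501 bp over an L1Md_T element between them. At Zfp946 a higher peak of 884 bp overlapped an RLTR13B1 element (ERVK) 17824 bp upstream, and a lower one of 776 bp an L1Md_T element on the other side of the gene. Zfp53 had a higher peak of 1268 bp over a B1 element 10107 bp upstream. Those of Zfp407, in an intron, and Zfp619 measured 501 bp each, and the annotation named no repeat for them. Of the intron and intergenic peaks on the whole higher list, 28.9% overlapped an ERVK element. Of the 85 lower Zfp peaks in introns or intergenic sequence, 8 (9.41%, 4.15% to 17.7%) overlapped L1Md elements, against 18.6% of the lower list. CpG islands were named for 17 (20%, 12.1% to 30.1%), against 13.8%.

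To see how often Zfp genes were lower at all, each gene was counted at its 2 ends, since the RefSeq gene table gives no strand. Of 396 protein-coding Zfp genes, 269 had a peak centred within 1 kb of an end, and 57 of these (21.2%, 16.5% to 26.6%) had a lower one. Over all protein-coding genes with such a peak the share was 31.5%. At TSSs from the promoter table, which does not cover every gene, it was 46 of 247 Zfp genes (18.6%, 14.0% to 24.05%) against 31.5%. The shares were 30 of 118 (25.4%, 17.9% to 34.3%) for Zfp genes outside clusters and 27 of 151 (17.9%, 12.1% to 24.9%) for those in clusters. In clusters of 10 or more genes it was 8 of 69 (11.6%, 5.14% to 21.6%), and in clusters of 3 to 9 genes 19 of 82 (23.2%, 14.6% to 33.8%). The upper bounds for all Zfp genes and for the clustered ones lie below the share over all protein-coding genes, and no test of the difference was made. Zbtb genes, another C2H2 family without KRAB domains, had a lower gene-end peak at 11 of 22 (50%, 28.2% to 71.8%). At TSSs the Zbtb share was 5 of 19 (26.3%, 9.15% to 51.2%). Zscan and Zkscan genes had a lower gene-end peak at 4 of 15 (26.7%, 7.79% to 55.1%). Each of these intervals includes the share of all genes, 31.5%.

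The Zfp share lay below that of all peaks within 1 kb of a TSS and above it farther out. When each peak was given to its nearest TSS in the promoter table, 623 were nearest a Zfp gene and 109 of these (17.5%, 14.6% to 20.7%) were lower, against 14.9% of all peaks. Within 1 kb the share was 46 of 238 (19.3%, 14.5% to 24.9%) against 28.1%. At 1 to 10 kb it was 20.4% (13.4% to 29.0%) against 15.4%, at 10 to 100 kb 14.8% (10.6% to 19.9%) against 11.4%, and beyond 100 kb 13.8% against 10.1%. The intervals beyond 1 kb include the share of all peaks.

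H2A.Z peaks were also counted at promoters, whether or not they were on a list. Of the 400 promoter windows of 330 Zfp genes, from 250 bases before to 50 after the start, 295 (73.8%, 69.1% to 78.0%) were touched by a peak, against 50.6% of the 21263 windows of all protein-coding genes. The Zfp share was the higher one in windows under 60% GC, with 61.1% against 17.6% under 50% GC, 84.8% against 50.1% from 50% to 55% and 86.9% against 63.8% from 55% to 60%. From 60% to 65% GC it was 67.4% against 70.3%, and from 65% upward 67.1% against 70.1%. Of those touched, 56 (19%, 14.7% to 23.9%) were touched by a lower peak, against 29.7%. These 56 windows belong to 47 genes. Windows of 1 gene can overlap and share a peak but are counted as separate, so the intervals of window shares are too narrow. The Zfp windows under a lower peak had a median GC content of 60.7% and a ratio of observed to expected CG of 0.716. Those under unchanged peaks had 54% and 0.619, and those with no peak 53.3% and 0.557. For all protein-coding genes the median GC contents in the same order were 64%, 59.3% and 50%. Clustered Zfp windows stood at 58.7% under lower and 53.3% under unchanged peaks, and those outside clusters at 65% and 55.7%.

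GC content moved with the share that was lower in Zfp windows and in all windows. Under 50% GC, 6 of 66 Zfp windows with a peak were lower (9.09%, 3.41% to 18.7%), against 10.2% of all windows. From 50% to 55% it was 6 of 78 (7.69%, 2.88% to 16.0%) against 16.8%. From 55% to 60% it was 15 of 73 (20.5%, 12% to 31.6%) against 26.2%, and from 60% to 65% 7 of 29 (24.1%, 10.3% to 43.5%) against 34.6%. From 65% upward it was 22 of 49 (44.9%, 30.7% to 59.8%) against 40.7%. In 1 of the 5 classes, 50% to 55%, the interval lay below the share of all windows. Windows of 1 gene are counted as separate here too. The part of GC content in the lower share of Zfp promoters was not tested.

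**Figure D4:**
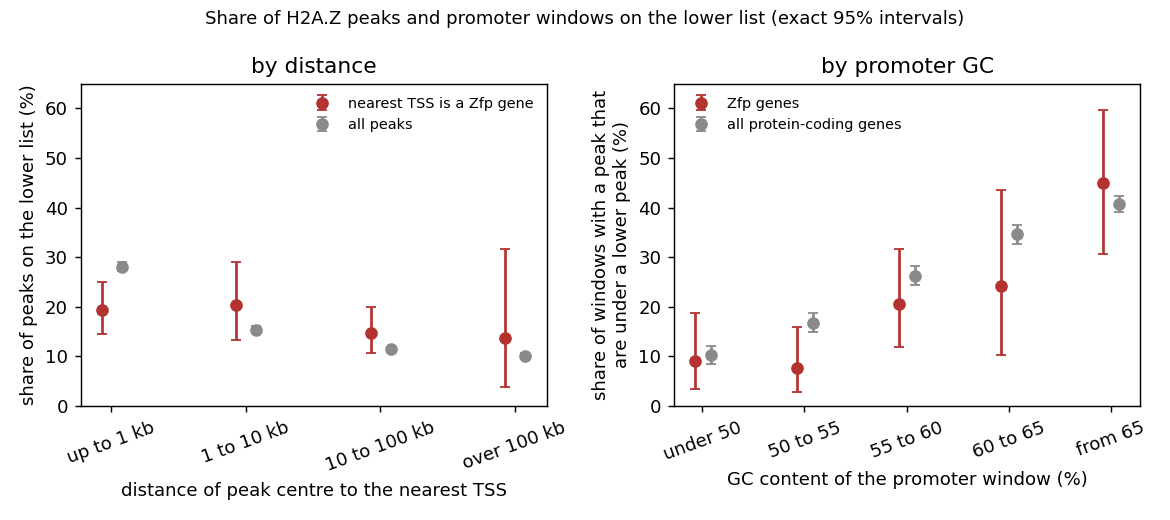
Left, share of peaks on the lower list (percent) by distance to the nearest TSS, for peaks nearest a Zfp gene and for all peaks. Right, share of promoter windows with a peak that are under a lower one (percent) by GC content of the window; bars are exact 95% intervals, and the Zfp share rises from 9.09% under 50% GC to 44.9% from 65% GC.

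Short motifs were searched on both strands of the windows. The ETS motif CCGGAAGT was found in 38 of 400 Zfp windows (9.5%) and in 5.15% of all protein-coding windows. The CCAAT box CCAAT was found in 189 (47.2%) against 38.2%. The YY1 motif AAGATGGCG was found in 10 (2.5%) against 1.83%. TATAAA was in 28 (7%) against 12.6%, and in none of the 56 under a lower peak, which allows up to 5.36%. It was in 5.86% of Zfp windows under unchanged peaks and in 5.47% of all protein-coding windows under lower peaks, both close to that limit. The ETS motif was in 3 of those 56 (5.36%) and in 26 of the 239 under unchanged peaks (10.9%). These letters are matches in a window and show no binding.

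Zfp genes formed 32 clusters holding 214 genes, and 16 of these clusters had at least 1 gene with a lower gene-end peak. Within the cluster spans 81 of 444 peaks (18.2%) were lower, counting peaks of all genes there, against 14.8% of the whole peak set. Of peaks in protein-coding genes or within 1 kb, counted per gene, 22.6% were lower. The side on which the spans fall thus depends on the comparison. Chromosome 7 held 33 of the 150 lower Zfp peaks (22%), close to its 22.7% of all Zfp genes in the table. Chromosome 13 held 39 Zfp genes, of which 24 had a gene-end peak and none a lower one, which allows up to 12.5%.

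The cluster with the most genes given a changed peak lay on chromosome 7 (chr7:29768552-30169775). Of its 15 Zfp genes 13 had a gene-end peak and 3 a lower one, or 13 and 4 at a TSS. Over all protein-coding genes with such a peak the share with a lower one was 31.5% at gene ends and at TSSs. In its span 7 of the 23 peaks (30.4%) were lower, against 14.8% of the whole peak set. The 4 clusters with most such genes were picked by their changed peaks, so their counts are a description. The 7 lower peaks were given to Zfp14, Zfp30, Zfp420, Zfp74, Zfp790 and Zfp82. The widest were 1327 bp over a CpG island 11147 bp upstream of Zfp74, 1203 bp at Zfp82, 1159 bp at Zfp420 and 1048 bp over the last exon of Zfp30. Another, on chromosome 6 (chr6:47815536-48086986), had 8 Zfp genes. It held 7 with a gene-end peak and 4 with a lower one, or 8 and 3 at a TSS. Its widest were 1431 bp at the promoter of Zfp783, 1404 bp at the CpG island by the start of Zfp398, 1302 bp named for Zfp777 and 966 bp named for Zfp212. The next, also on chromosome 7 (chr7:27674661-28014210), had 8 genes. It held 7 with a gene-end peak and 2 with a lower one, or 7 and 3 at a TSS. There Zfp60 (887 bp), Zfp974 (762 bp) and Zfp59 (501 bp) had peaks at the TSS and Zfp607b (501 bp) had one in an intron. The last of the 4, on chromosome 17 (chr17:21383707-22456689), had 18 genes. It held 14 with a gene-end peak and 2 with a lower one, and the same numbers at a TSS. Of 34 peaks in its span 2 were lower and 2 higher, against 14.8% and 0.518% of the whole peak set. The 2 higher ones were those of Zfp53 and Zfp946 described above. Zfp768 and Zfp668 lie in a cluster of 10 genes on chromosome 7 (chr7:127233061-127885996), where 8 had a gene-end peak and 3 a lower one. At a TSS 7 of them had a peak and 2 a lower one.

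The largest cluster lay on chromosome 13 (chr13:67038594-67827000). Of its 24 Zfp genes 15 had a peak at a gene end and 19 at a TSS, and none of these peaks was lower. A count of 0 of 15 genes allows up to 20%. Of 33 peaks in the span 1 was lower, a 501 bp intergenic peak 7407 bp upstream of Zfp455. The promoters of Zfp712 and Zfp457 shown above belong to it. Clusters of 12 Zfp genes on chromosome 4 (6 genes with a gene-end peak) and of 14 on chromosome 17 (8 such genes) also had no lower gene-end peak. These counts of 0 allow up to 50% and 37.5%, above the 31.5% of all protein-coding genes. A cluster of 12 on chromosome 7 (chr7:24081877-24587840, 6 such genes, up to 50%) had none either. Yet 10 of the 29 peaks in its span (34.5%) were lower, and 1 of its 7 genes with a TSS peak had a lower one.

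**Figure D5:**
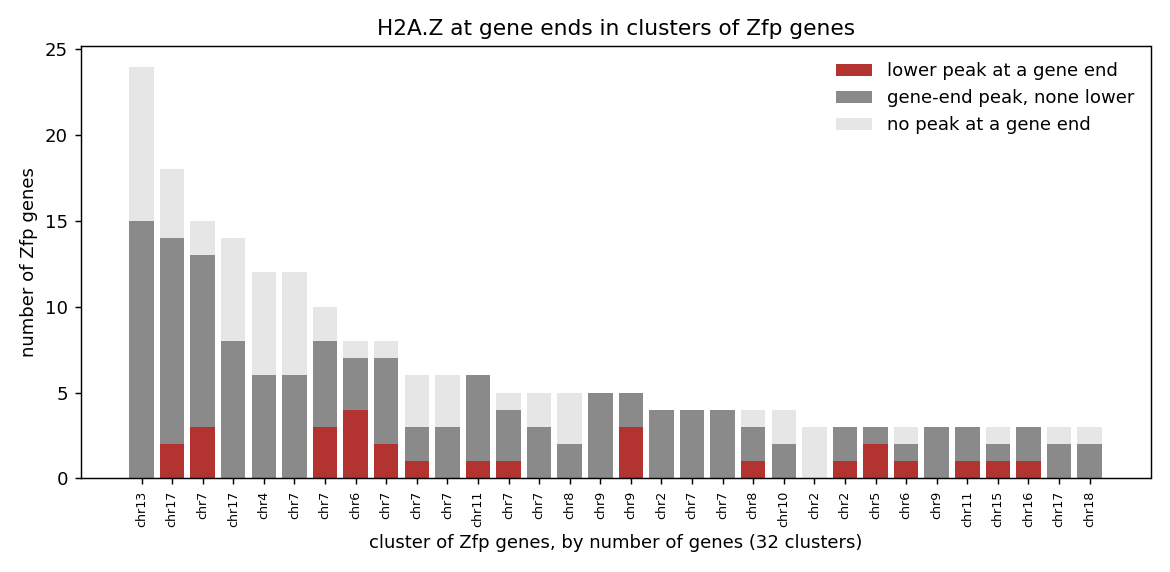
Number of Zfp genes (vertical axis) in each of the 32 clusters, ordered by size and labelled by chromosome, split into genes with a lower gene-end peak, with gene-end peaks of which none is lower, and with no gene-end peak. The tallest bar, on chromosome 13, has 15 of 24 genes with a peak and no lower one, and the chromosome 6 cluster of 8 genes has 4.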

How the data were processed

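H2A.Z CUT&Tag peaks of 4 control and 4 doxycycline libraries were read from 3 tables that the authors deposited: the peak set and the lower and higher lists. The tools were deepTools, HOMER, Picard, Bowtie2 and Trimmomatic, with GRCm38, per the submitters' processing notes. Per the file headers, the lists were annotated with HOMER annotatePeaks. Not given in the sources used here are the peak caller, the test, its threshold and any pooling. The deposited score column holds 0 for every listed peak and was not used. Starts are printed counting from 1.

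Genes, clusters and promoters came from RefSeq tables of GRCm38.p6, where all 106 genes matched by Entrez ID. KRAB domains and fingers, planned from protein sequences, were not analysed here. Promoter windows were classed by the peaks touching them, which departs from the planned gene-end classes. The RefSeq gene table gives no strand, so a gene end is a start or an end. No test was run. Shares have exact 95% Clopper-Pearson intervals. Members, lists and rules were chosen with earlier results of these data known. The named genes were those with the 10 widest lower promoter peaks, with 3 or more changed peaks, with a higher peak or on a list, and up to 4 genes by width in each of the 4 clusters with most such genes. Others are examples chosen after their values were seen. Counting was tested on simulated peaks, where 210 of 210 genes were recovered. Python 3.11.15, pandas 2.3.3, SciPy 1.17.1 and matplotlib 3.10.9 were used.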

Additional observations from a re-analysis of the deposited data

How the results depend on the processing

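The share of lower Zfp peaks at promoters depends on the definition: it was 18.7% by the authors' promoter class, 37.3% within 1 kb of the TSS and 42% within 3 kb. Including the inside of the named Zfp gene, an alternative chosen after seeing the data, gave 60%. The share of Zfp genes with a lower gene-end peak ranged from 18.6% to 23.9% over windows of 500 bp and 3 kb, overlap with the end, removal of peaks of the minimum width and the TSS in its place, and that of all protein-coding genes from 29.7% to 33%. Removing minimum-width peaks left 130 of 156 Zfp peaks and a median width of 1058 bp. Naming peaks by the nearest TSS of the promoter table, also chosen after seeing the data, gave 112 changed Zfp peaks, of which 99 were among the 156. Gaps of 100 or 500 kb put 191 or 250 genes in clusters, with a lower gene-end share of 16.7% or 20%. The KRAB alternatives were not run. No paired analysis was possible because the lists carry no values per library, and leaving out a library was not possible for the same reason. Depth, and with it the power to call a narrow peak, is unknown.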
